A study of Mus musculus with 5 samples.

Results

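Footprints of long mRNAs were compared between 30 and 10 min of homoharringtonine (HHT) in mouse brain slices, with 2 of the 5 libraries of the series, 1 a side. Every gene of the deposited count table entered the comparison, 10329 genes with a coding sequence (CDS) of over 600 and up to 24099 nt, and CDS length was the covariate. Of these, 4887 genes had at least 100 counts in both libraries together and are described by gene. The other 5442 enter the sums of counts, the TMM factors and, in part, the results at other count minimums. Hippocampal-cortical slices gave both libraries. The mice were male, of strain C57BL/6N and genotype wild type, at postnatal day 28 to 35. The slices were 400 µm thick, recovered for 3 to 4 h and were exposed to 20 µM HHT. The protocol lists 0.05% DMSO as vehicle, and a pool held 10 slices of 2 to 3 mice. No vehicle library at 10 or 30 min is part of the series used here, so time on HHT and time in the bath cannot be told apart. With 1 library a side no difference has a replicate check, and no p-value is given. Intervals are exact 95% conditional binomial intervals and cover counting error only, and reads carried no stated molecular identifiers.

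HHT occupies the peptidyl transferase centre of the ribosome and holds ribosomes that have only just started, while ribosomes already inside a reading frame go on to the stop codon. Footprints therefore leave an mRNA from its start towards its end, and a long reading frame takes longer to empty than a short one. Long reading frames are common in neurons, where they encode motors, scaffolds, channels and chromatin regulators.

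The libraries held 2022152 counts at 10 min and 1504748 at 30 min, with medians of 47 and 42 counts per gene. The authors' signal divides a count by the CDS length less 600 nt and by 1 factor per library, 0.828 at 10 min and 0.882 at 30 min, so a gene's ratio between the times does not depend on the length used. Ratios are given as the percent of the 10 min signal found at 30 min, or as log2. The labelled tissue was checked against markers: 21 of 27 listed neuron markers had at least 100 counts, among them Tbr1 of cortex and Prox1 of the dentate gyrus. Summed as a share of all counts, scaled to CPM, neuron markers stood at 17970 at 10 min and 17860 at 30 min. Astrocyte markers were at 16880 and 16800, oligodendrocyte markers at 4050 and 4164, endothelial and mural markers at 1542 and 1884, and microglia markers at 503.9 and 563.5. Blood, choroid plexus and ependymal markers were at 74.7 and 83.7. Single genes carry much of the neuron sum and of the endothelial and mural sum. Map2 gave 19976 of 36341 neuron marker counts at 10 min and 10404 of 26878 at 30 min. Bsg gave 1186 of 3118 endothelial and mural counts at 10 min and 2025 of 2835 at 30 min. A level or higher sum therefore does not show that most members of a list were level or higher.

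The first question was which mRNAs lost footprints between 10 and 30 min. The median gene kept 82.7% of its signal (quartiles 61.0% and 98.5%, log2 -0.27). In all, 798 of 4887 genes (16.3%) were at least 2-fold lower at 30 min, and 2 (0.0409%) were at least 2-fold higher. Of the 798, 714 had a CDS of 3000 nt or more and 28 had one under 2000 nt. The median of 687 genes with a CDS of 4000 nt or more was 40.3%, and that of 1520 genes under 1500 nt was 98.0%, a difference of -1.28 on the log2 scale from which a factor per library cancels. Library scaling does move the level of all genes: TMM factors placed the all-gene median at -0.03 with 515 genes lower and 8 higher, and total counts placed it at 0.24 with 257 lower and 56 higher. Factors from 6 mitochondrially encoded genes, whose ribosomes HHT does not target, gave -0.26 with 780 and 2. Their ratio of 30 over 10 min was 1.056, against 1.065 for the deposited factors. The origin of the deposited factors is not given, so the closeness cannot be taken as an independent check of the level.

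The loss was not steady in length: it was deepest near 8000 nt and smaller again in longer reading frames. Classes of CDS length include their lower limit and not their upper one. Short mRNAs under 1000 nt kept a median of 102%, those of 1000 to 1500 nt 96.7%, and those of 1500 to 2000 nt 93.0%. From 2000 to 3000 nt the median was 79.2%, from 3000 to 4000 nt 57.0%, from 4000 to 6000 nt 41.5%, and from 6000 to 8000 nt 35.4%. In that last class 136 of 154 genes (88.3%) were at least 2-fold lower. Beyond it the medians went back up, to 38.1% over 63 genes of 8000 to 10000 nt, 47.8% over 20 genes of 10000 to 12000 nt, 48.9% over 13 genes of 12000 to 14000 nt, and 59.5% over 16 genes of 14000 nt or more. These finer classes were set after the values were seen. A running median over 101 genes in order of length first passed 2-fold at 3678 nt and was lowest, at 35.2%, at 8076 nt. The Spearman rank correlation of the log2 ratio with CDS length was -0.69 over 4621 genes under 6000 nt and 0.35 over 266 genes of 6000 nt or more; it is across genes of 1 pair of libraries, and genes with more counts have less counting error.

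**Figure D1:**
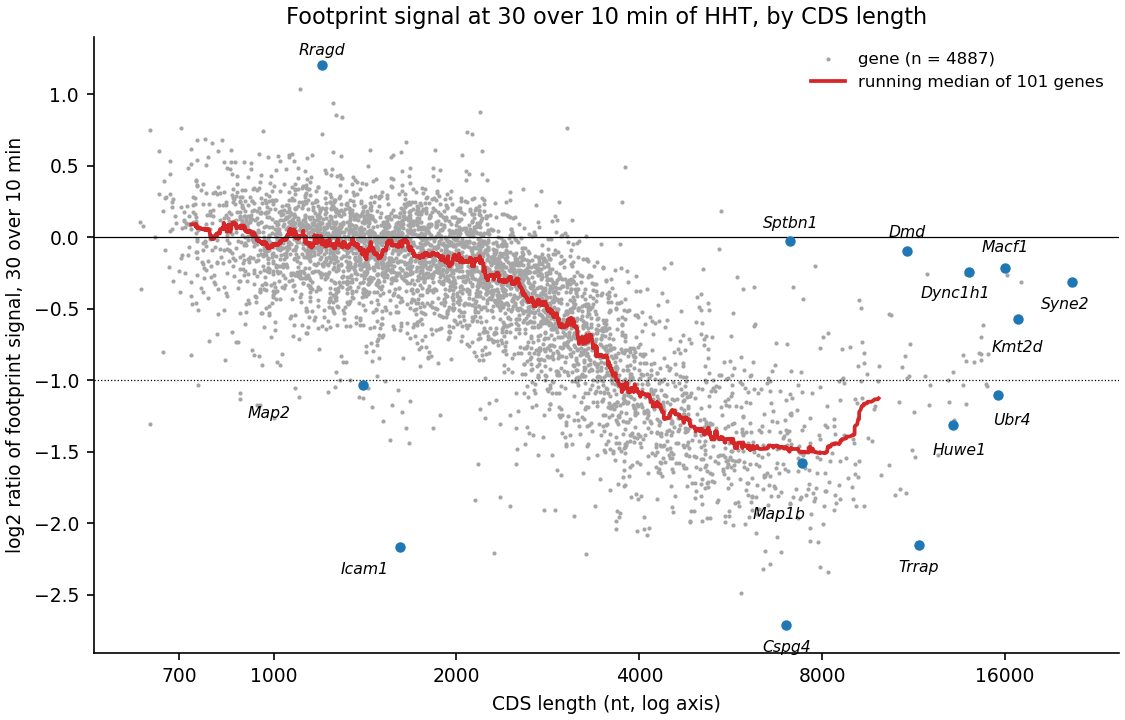
Log2 ratio of the deposited footprint signal at 30 over 10 min (vertical axis) against CDS length in nt (horizontal log axis) for 4887 genes, with the running median of 101 genes in red and named genes in blue; the dotted line marks a 2-fold loss. The running median stays near 0 for short reading frames, is lowest at 8076 nt (-1.51) and is higher again beyond.

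The intervals before and after share a library with this one, so their values are set beside it without a comparison of their own. From 5 to 10 min the class of 2000 to 3000 nt had the lowest median, 66.9%, while the class of 6000 to 8000 nt stood at 114% and that of 14000 nt or more at 123%. From 30 to 60 min the medians were 83.4% under 1000 nt, 75.8% at 6000 to 8000 nt and 46.4% at 14000 nt or more. The longest mRNAs thus had the lowest median of all classes in the last interval. At 60 min the medians against 10 min were 26.3% at 6000 to 8000 nt, 29.3% at 12000 to 14000 nt and 28.8% at 14000 nt or more, against 84.2% under 1000 nt. By 60 min the medians of the longest classes lay close to that of 6000 to 8000 nt.

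**Figure D2:**
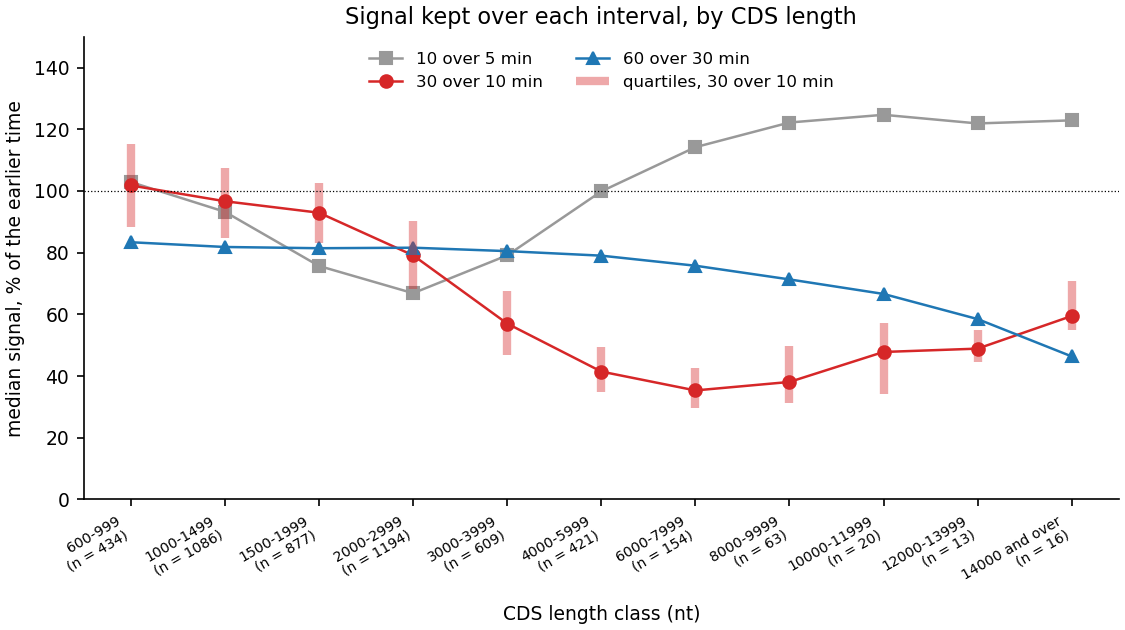
Median footprint signal as a percent of the earlier time, by CDS length class, for 10 over 5, 30 over 10 and 60 over 30 min; red bars span the quartiles of genes for 30 over 10 min and n is the number of genes. The 30 over 10 min curve is lowest at 6000 to 8000 nt (35.4%), whereas the 60 over 30 min curve is lowest at 14000 nt or more (46.4%).

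In sums of counts, the weight of the footprint pool moved to shorter mRNAs. CDS of 4000 nt or more held 30.1% of counts at 10 min (exact binomial interval 30.0% to 30.2%) and 18.4% at 30 min (18.4% to 18.5%). CDS under 2000 nt held 33.7% and 45.5%. Summed over all 10329 genes, counts over the library factor, not divided by length, stood at 30 min at 69.9% of the 10 min sum. Of the net difference, 57.2% lay in the 901 genes of 4000 nt or more and 6.18% in the 6461 genes under 2000 nt. These values depend on the deposited factors, whose ratio of 30 over 10 min is 1.065. It would be 0.9015 with TMM and 0.7441 with total counts, where both sums are equal by construction. The most counted mRNAs show both ends. Map1a, a microtubule-associated protein gene of 9045 nt, had 24056 and 11685 counts and kept 45.6% (44.6% to 46.6%). Map1b, its relative of 7395 nt, had 23687 and 8469 counts and kept 33.6% (32.8% to 34.4%). Cltc, the clathrin heavy chain (5028 nt), had 19272 and 6686 counts and kept 32.6%. Hspa8, the constitutive heat shock cognate chaperone (1941 nt), had 8671 and 9553 counts, 103.5% (100.5% to 106.5%).

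The giant mRNAs of 12000 nt or more were taken one by one. The table holds 44 such genes, of which 29 passed the count minimum, and they kept 34.8% to 86.3% of their signal with a median of 55.2%. All 29 were below 100%, and 10 were at least 2-fold lower. Huwe1, a HECT ubiquitin ligase of 13137 nt, had 3706 and 1593 counts and kept 40.4% (38.0% to 42.8%), then 48.1% from 30 to 60 min. Pclo, the presynaptic scaffold piccolo (14592 nt), had 5628 and 3401 counts and kept 56.8%, then 45.8%. Kmt2d, a histone H3 lysine 4 methyltransferase (16767 nt, transcript NM_001033276, chromosome 15, 98831669 to 98874077 in GRCm38), had 1179 and 847 counts and kept 67.5% (61.7% to 73.8%), then 45.0%. Mdn1, an AAA ATPase of ribosome assembly (16749 nt), had 232 and 168 counts and kept 68.0%, then 36.7%. Pclo, Kmt2d and Mdn1 thus kept more than Huwe1 from 10 to 30 min; the values of the later step share the 30 min library.

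By point values 6 giants kept over 80%, while none of the other 23 was above 70%. This split was seen only after the values were known, and counting intervals bridge it: that of Mdn1 spans 55.4% to 83.3%. Dync1h1, the heavy chain of cytoplasmic dynein (13935 nt, transcript NM_030238, chromosome 12, 110601395 to 110666944), had 4458 and 4007 counts and kept 84.4% (80.9% to 88.1%). Macf1 and Dst, spectraplakins that link actin to microtubules, kept 86.3% (79.5% to 93.7%) and 83.2% (77.4% to 89.5%). Plec, the linker plectin, kept 83.7% (77.1% to 90.8%), and Ahnak, a large scaffold protein, 80.6% (71.5% to 90.8%). Syne2, a nesprin of the nuclear envelope, had 127 and 109 counts and kept 80.6% with a wide interval (61.8% to 105%). From 30 to 60 min Dync1h1, Macf1, Dst, Plec and Syne2 kept 66.5%, 69.5%, 68.1%, 72.5% and 79.8%, while Ahnak kept 43.2%. The TPM table departs from the count table by over 1.5 times, after the shift common to all genes, for 5 of the 29 (17.2%), Pkd1, Mycbp2, Pclo, Ryr2 and Kmt2d, against 274 of 4887 genes (5.61%). For Kmt2d it lists 69 at 10 min and 96 at 30 min. In the TPM table the 6 were not apart from the other 23. Their log2 ratios there were -0.31 for Plec, -0.13 for Macf1, -0.01 for Dync1h1, 0 for Ahnak, 0.46 for Syne2 and 0.55 for Dst. Those of Pkd1 and Kmt2d were 0.81 and 0.47.

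**Figure D3:**
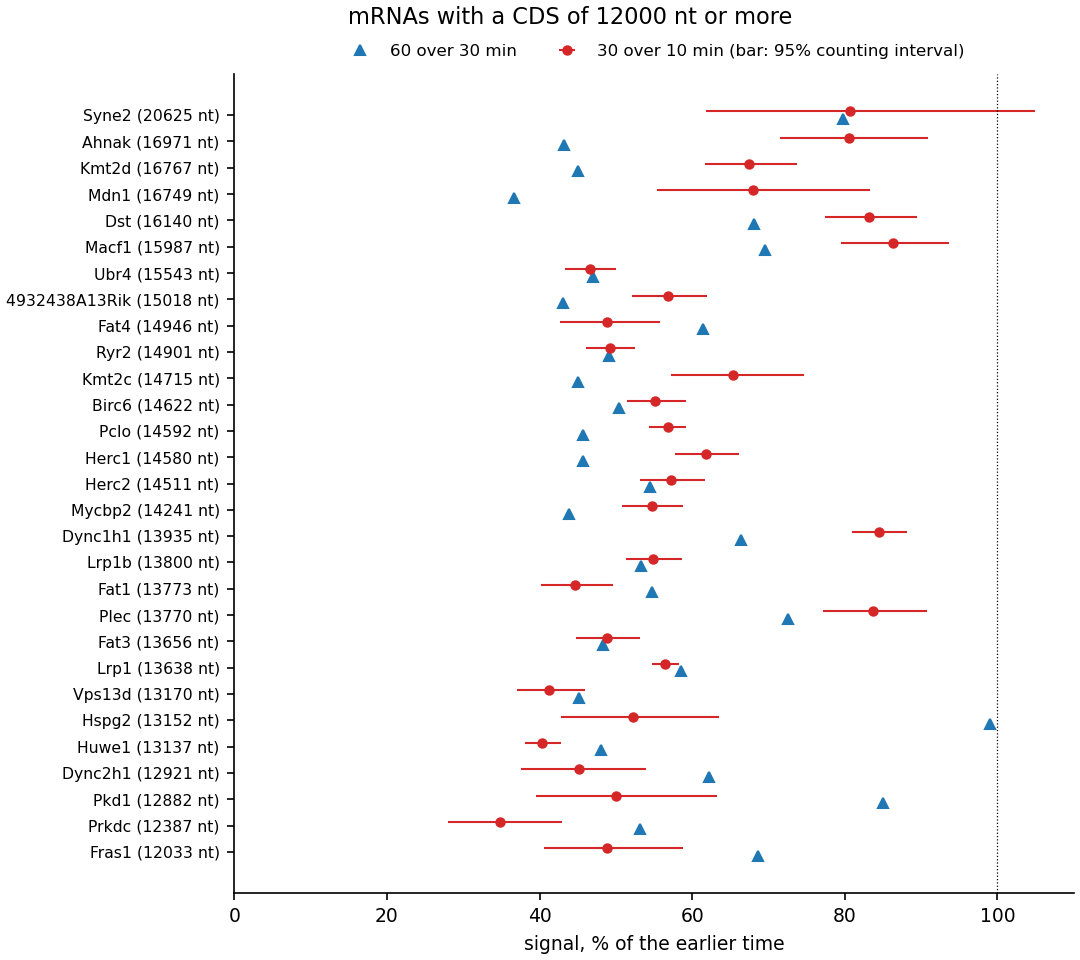
Percent of the earlier signal kept by each of 29 mRNAs with a CDS of 12000 nt or more, in order of length: red points give 30 over 10 min with the 95% counting interval, blue triangles 60 over 30 min. Dync1h1, Plec, Macf1, Dst, Ahnak and Syne2 lie above 80% for 30 over 10 min; the other 23 lie between 34.8% and 68.0%.

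Reading frames of equal length differed by far more than their counting error. Within the class of 6000 to 8000 nt the log2 ratios had an SD of 0.42 across genes against a median counting error of 0.12, and the extremes were 6.42-fold apart. At the low end stood Cspg4, the NG2 proteoglycan of oligodendrocyte precursors and pericytes (6984 nt, transcript NM_139001, chromosome 9, 56865104 to 56899870). It had 436 counts at 10 min and 71 at 30 min and kept 15.3% (11.7% to 19.7%), the lowest of all 4887 genes. At the high end stood Sptbn1, a spectrin beta chain (7092 nt, transcript NM_175836, chromosome 11, 30099395 to 30268384). It had 4362 and 4560 counts and kept 98.2% (94.2% to 102%). The deposited signal of Sptbn1 was 780.5, 811.4, 796.8 and 661.4 at 5, 10, 30 and 60 min, and that of Cspg4 was 84.4, 82.5, 12.6 and 15.6. Short classes were tighter, with SDs of 0.33, 0.29 and 0.29 against counting errors of 0.21, 0.19 and 0.19 for classes under 1000, 1000 to 1500 and 1500 to 2000 nt.

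**Figure D4:**
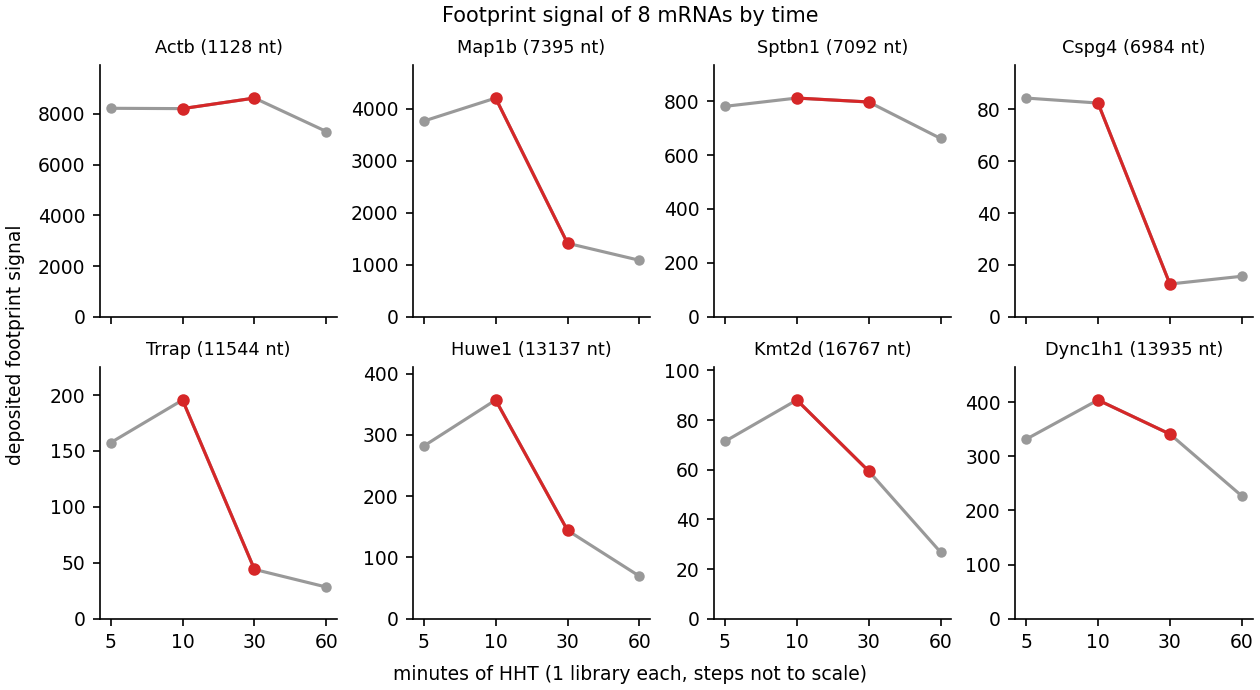
Deposited footprint signal (count per kilobase over the library factor, vertical axis from 0) of 8 mRNAs at 5, 10, 30 and 60 min of HHT, 1 library per time, with the step from 10 to 30 min in red. Actb and Sptbn1 are nearly level over that step, Cspg4, Trrap, Map1b and Huwe1 drop, and Kmt2d and Dync1h1 drop less.

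The other genes with the lowest ratios were Eml6, Flnc, Wnk1, Atr, Dock10, Elmsan1 and Selp. Of these, Eml6, Flnc, Atr and Selp lie close to the minimum of 100 counts and reach it mainly through the 10 min library (100, 95, 93 and 91 counts). The ends of a ranking favour genes with few counts, so the rank of these genes is uncertain. Wnk1, a kinase that controls ion transport (6387 nt), had 1399 and 299 counts and kept 20.1% (17.7% to 22.8%). Dock10, a guanine nucleotide exchange factor (6564 nt), had 371 and 81 counts and kept 20.5%. Flnc, a filamin (8181 nt), had 95 and 20 counts and kept 19.8% (11.6% to 32.3%), and Eml6 (5877 nt) had 100 and 19 counts and kept 17.8% (10.3% to 29.3%). Trrap, the scaffold of histone acetyltransferase complexes (11544 nt, transcript NM_001081362, chromosome 5, 144767737 to 144859778), had 1772 and 425 counts. It kept 22.5% (20.2% to 25.1%), where the median of genes of 10000 to 12000 nt was 47.8%. In the same class Dmd, dystrophin (11037 nt), had 234 and 233 counts and kept 93.5% (77.7% to 113%), and Kmt2a, another histone H3 lysine 4 methyltransferase (11892 nt), kept 83.6% (73.5% to 95.1%), then 44.0% from 30 to 60 min.

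Gene groups were read against their own length class, a difference that library scaling leaves as it is; by construction as many genes of a class lie above its median as below it. The classes are wide, so length still differs within them. Against a finer length trend (lowess, frac 0.05) spectrins and ankyrins had a median of 0.55 and astrocyte markers one of -0.35. On that scale chromatin modifiers were at -0.03 and FMRP targets at 0.06. Counts of members 2-fold lower stand against 16.3% of all 4887 genes and move with the CDS lengths of a list. Chromatin modifiers, named in the title of the series, had 30 of 50 members with enough counts (54 listed) at least 2-fold lower and none 2-fold higher, with a median of 40.1% and a median CDS of 5220 nt. Against their length classes 28 lay below and 22 above (median -0.08). Setd2, the histone H3 lysine 36 methyltransferase (7614 nt), had 988 and 340 counts and kept 32.3% (28.5% to 36.6%). Chd8, a chromatin remodeller linked to autism (7749 nt), kept 27.8% (24.5% to 31.6%), and Setd1b 25.0%. Towards the other end Hdac4, a histone deacetylase (3231 nt), kept 89.9%. The list thus lay on both sides of its length classes.

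The list of mTOR, related kinases and regulators had 12 of 18 measured members (25 listed) at least 2-fold lower, a median of 35.2%, and 12 below and 6 above their class (median -0.31). It held the giant kinases of the PI3K-like family, of which Mtor, Smg1, Atm and Prkdc were singled out after their values were seen. Atr, the kinase of the replication checkpoint (7926 nt), had 93 and 20 counts and kept 20.2%; Mtor, the growth kinase (7650 nt), had 1170 and 305 counts and kept 24.5%. Smg1 of nonsense-mediated decay, Atm of the DNA damage response, and Prkdc, the DNA-dependent kinase, kept 29.0%, 33.8% and 34.8%. The TPM table lists 70 and 37 for Mtor and 19 and 17 for Smg1, a smaller loss for both. Against the class median this list was less low in the TPM table (median -0.09, 9 below and 8 above). Towards its other end were Pik3r1 at 93.9% and Tsc1 at 86.7%.

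Ubiquitin ligases and their relatives had 12 of 24 members (26 listed) at least 2-fold lower, and 12 lay below and 12 above their class. Usp9x, a deubiquitinase of 7665 nt, had 5118 and 1429 counts and kept 26.2% (24.7% to 27.8%). The cullin Cul3 (2307 nt) kept 92.9%. Voltage-gated sodium and calcium channels had 10 of 18 members (22 listed) at least 2-fold lower, from Scn8a, a sodium channel pore subunit (5937 nt), at 33.7% (31.3% to 36.3%), to the small calcium channel beta subunits Cacnb2 and Cacnb4 at 84.4% and 84.5%. Against their classes 6 lay below and 12 above (median 0.13), but 10 below and 8 above in the TPM table (median -0.08). Potassium channels, with a median CDS of 2277 nt, had none of 23 members 2-fold lower, and 15 lay below and 8 above their class (median -0.08); Kcnh7 was lowest at 50.2% and Kcna2 highest at 113%. Large adhesion and receptor proteins had 22 of 33 (36 listed) at least 2-fold lower, and 19 lay below and 14 above their class (median -0.03), with the teneurin Tenm4 at 28.7% and Tenm1 at 30.6%, and Reln, the secreted protein reelin (10382 nt), at 68.8% (64.7% to 73.1%).

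Cytoskeletal groups lay above their length classes. Spectrins and ankyrins had none of 11 measured members (15 listed) 2-fold lower, a median of 73.1% with a median CDS of 5181 nt, and 10 of 11 above their class (median 0.40; 9 of 11 and 0.32 in the TPM table). Against Sptbn1 at the high end, Sptan1, the alpha chain that pairs with beta chains (7374 nt), was lowest: it had 11593 and 6415 counts and kept 52.0% (50.4% to 53.6%). For Sptan1 the TPM table lists 1064 and 1184, a log2 ratio of 0.15 against -0.94. Cytoskeletal linkers and motors had 13 of 30 at least 2-fold lower and 20 of 30 above their class (median 0.20). The kinesin Kif13b was lowest at 25.9% and Dmd highest, and Kif1a, a motor of synaptic vesicle precursors (5094 nt), had 8440 and 3067 counts and kept 34.1% (32.7% to 35.6%). The presynaptic active zone list had 3 of 19 (21 listed) 2-fold lower and 16 of 19 above its class (median 0.15); Bsn, the scaffold bassoon (11829 nt), had 5144 and 2795 counts and kept 51.0%. Postsynaptic scaffolds and glutamate receptors had 3 of 30 (31 listed) 2-fold lower, Grm5, Grin2a and Grin2b, and 17 of 30 above their class. In that list Shank3 (5193 nt) kept 72.7% (63.8% to 82.7%) and Grin2c 96.7%, while Grm5, a metabotropic receptor, kept 42.3%. The list of often named FMRP targets (FMRP is lost in fragile X syndrome and binds mRNA) had 28 of 59 measured members (60 listed) 2-fold lower and 38 of 59 above their class (median 0.11, and 0.04 in the TPM table).

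**Figure D5:**
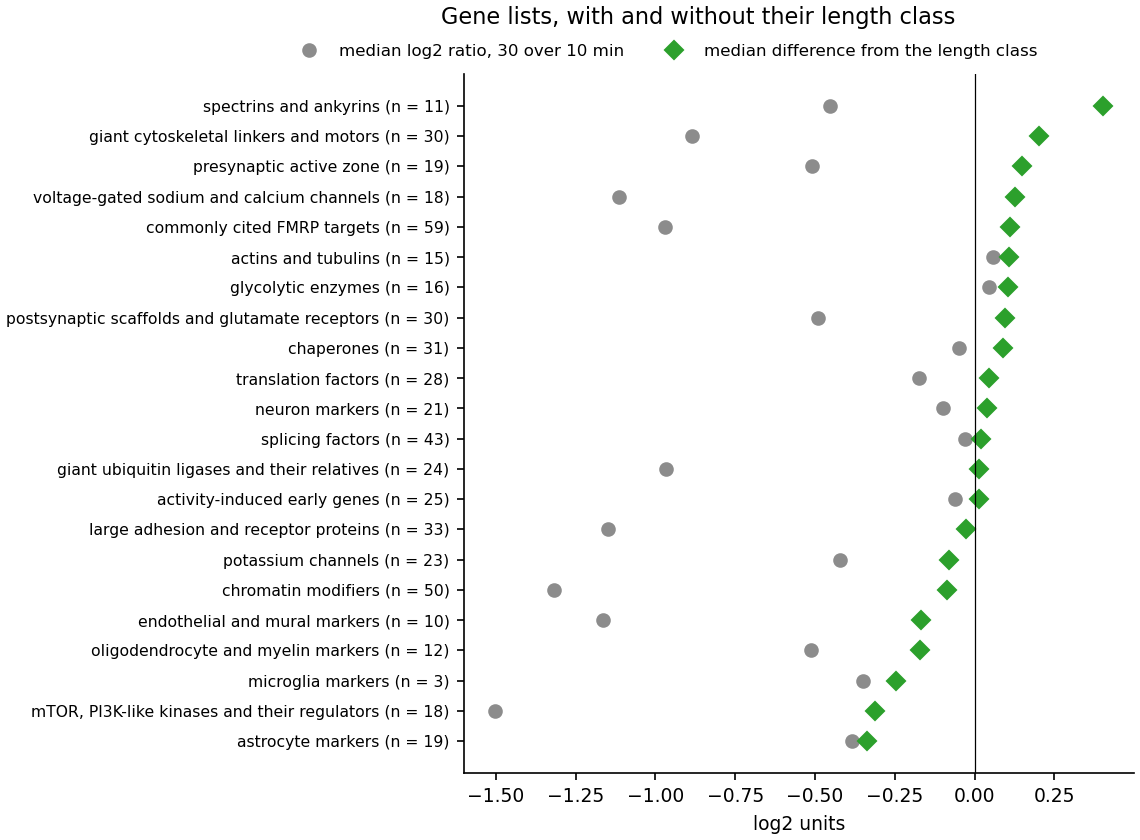
Median log2 ratio at 30 over 10 min of each gene list with at least 3 measured members (grey circles) and median difference of its members from the median of their CDS length class (green diamonds); n is the number of members with at least 100 counts. Against their length classes spectrins and ankyrins lie highest (0.40) and astrocyte markers lowest (-0.34). In the TPM table oligodendrocyte and myelin markers (-0.38) lie below astrocyte markers (-0.30).

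Most of the following groups with short reading frames had medians near 100% on the deposited scale. Translation factors were lower, with a median of 88.7%. Actins and tubulins had none of 15 members 2-fold lower or higher and a median of 104%; Actb, cytoplasmic actin (1128 nt), had 3590 and 4016 counts, 105% (100% to 110%). Glycolytic enzymes had none of 16 and a median of 103%, with Gapdh at 112% (101% to 125%) and Pfkl, a phosphofructokinase of 2343 nt, at 75.5%. Chaperones had 1 of 31 (35 listed) 2-fold lower, Dnajc13 (6732 nt), and a median of 96.7%. Activity-induced early genes had 1 of 25 (38 listed) 2-fold lower, the clock gene Per1 (3876 nt) at 28.5% (24.5% to 32.9%), while Jun stood at 63.9% and Arc at 106%. Translation factors had 6 of 28 (34 listed) 2-fold lower (16.3% over all genes), all with CDS of over 3000 nt, and 12 lay below and 16 above their class (median 0.05). Eef2 and Eef1a1, the elongation factors, stood at 92.4% and 102%. Gcn1l1, the partner of the kinase Gcn2 (8016 nt), kept 24.9% (21.3% to 29.1%). Splicing factors, the other group named in the title, had a median of 98.0% over 43 members (48 listed), of which 8 were 2-fold lower, and 23 lay above their class. The lowest were the long nuclear speckle proteins Son (6381 nt), with 3561 and 1122 counts, at 29.6%, and Srrm2 (7824 nt), with 8040 and 2543 counts, at 29.7% (28.4% to 31.1%). Rbfox2 and Celf2, regulators of neuronal splicing, were highest at 144% (121% to 171%) and 133% (122% to 145%).

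Astrocyte and oligodendrocyte markers lay below their length classes, while neuron markers had 14 of 21 members above theirs (median 0.04). Astrocyte markers had 16 of 19 members (22 listed) below their class with a median of -0.34, or 15 of 19 and -0.30 in the TPM table, although 1 of 19 was 2-fold lower. Slc4a4, a bicarbonate transporter (3285 nt), had 1072 and 415 counts and kept 36.4%, Slc1a3, a glutamate transporter (1632 nt), had 1513 and 897 counts and kept 55.7% (51.2% to 60.5%), and Aqp4, the water channel, stood at 118%. Oligodendrocyte and myelin markers had 11 of 12 (24 listed) below their class (median -0.17, and -0.38 in the TPM table), and 1 of 12, Cspg4, was 2-fold lower; Olig1, a lineage transcription factor of 783 nt, kept 60.4%, and Cnp, a myelin enzyme, had 452 and 433 counts. Microglia markers had 3 of 28 listed genes with enough counts, and of these Csf1r kept 57.1% and Ctsd 90.9%. Endothelial and mural markers had 6 of 10 (22 listed) 2-fold lower and 6 below their class, again with Cspg4; Cdh5, the cadherin of endothelial junctions (2355 nt), kept 28.4% (20.4% to 38.9%), and Bsg, basigin (822 nt), had 1186 and 2025 counts, 160% (149% to 172%). The TPM table lists 1978 and 2048 for Bsg. In bulk tissue fewer cells of a type and fewer footprints per cell cannot be told apart.

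Among the 28 genes under 2000 nt that were at least 2-fold lower, Icam1, an adhesion molecule of activated endothelium (1614 nt), was lowest with 122 and 29 counts, 22.3% (14.4% to 33.7%). Selp, P-selectin of the same cells (2307 nt), stood just above that length with 91 and 21 counts, 21.7%. Map2, the dendritic microtubule-associated protein, had the most counts among the 28, 19976 and 10404, and kept 48.9% (47.8% to 50.1%). The table lists Map2 by the transcript NM_008632 with a CDS of 1404 nt, while RefSeq holds 3 curated transcripts of the gene. Rims1 (1877 nt listed, 5 curated transcripts) kept 42.2%, and Med1 (1671 nt listed, 5) kept 37.0%. The part of other isoforms in these values was not tested. Genes with several curated transcripts made up 12 of the 28 (42.9%) and 51.3% of all measured genes under 2000 nt. Wdr33 (939 nt) kept 44.4% in the count table but went from 32 to 53 in the TPM table.

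The 2 genes at least 2-fold higher were Rragd, a GTPase of the mTOR pathway at the lysosome (1200 nt, transcript NM_027491, chromosome 4, 32982998 to 33022180), and Ubfd1 (1107 nt). Rragd had 59 counts at 10 min and 145 at 30 min, 231% (169% to 318%), and Ubfd1 had 75 and 164, 205% (155% to 274%). Next came Pick1, a scaffold of glutamate receptor trafficking, at 192%, the golgin Golga5 at 183% and Syt2, a synaptotagmin, at 181%. Golga5 had 42 and 82 counts and Syt2 41 and 79, so their rank is uncertain too. Rtn1, a reticulon (627 nt), had 2861 and 5119 counts, 168% (161% to 176%), while the TPM table lists 2516 and 2983. Among long reading frames only Myo5b, a myosin of vesicle transport (5457 nt), exceeded 100% in the class of 4000 to 6000 nt, with 358 and 433 counts, 114% (98.5% to 131%), an interval that includes 100%.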

How the data were processed

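Ribosome footprints of 2 libraries, 10 and 30 min of HHT, were compared, with 5 and 60 min as side values; 0 min was not used. The build is mm10, and the tools named are TopHat2 2.0.9, Bowtie2 2.1.0, Trimmomatic 0.32, SAMtools 0.0.19 and cutadapt 1.7.1, all per the submitters' processing notes; names of the deposited data add RSEM and a CDS without its ends. The sources used here give neither settings nor how reads of near-identical genes were shared. The deposited files, made by the authors, hold expected counts (whole numbers, used unchanged), a signal (count per kilobase of CDS length less 600 nt over 1 factor per library), ratios to 0 min (not used) and scores: fractions lost (not used) and a TPM rounded to whole numbers. The deposited table gives 1 transcript and CDS length per gene; 22 lengths are not multiples of 3. Of 10329 transcripts 10293 matched RefSeq GRCm38.p6, the assembly behind mm10, 10112 with the same symbol.

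Ratios, exact intervals and medians used Python 3.11.15, pandas 2.3.3 and SciPy 1.17.1; TMM factors came from edgeR 4.0.16 in R 4.3.3. A trend on log2 CDS length (statsmodels 0.14.6, lowess, frac 0.3) ran below the genes of 8000 nt or more (median residual 0.27), so the text gives the median of each of 8 length classes in its place. Named genes were the 8 lowest and 8 highest ratios and length-adjusted values, the 12 longest, the 10 most counted, 25 panel genes, 3 at each end of each class and 2 at each end of each of 23 lists; others complete a count, serve as marker examples (Tbr1, Prox1) or are named as chosen after their values were seen. Members and lists were chosen with earlier results of these data known. Steps were run on data simulated around the frac 0.3 trend with counting error only. That simulation held no variation between libraries, so it cannot tell how far such variation affects the values. Alternatives were other scalings, count minimums, folds, length limits and the TPM table.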

Additional observations from a re-analysis of the deposited data

How the results depend on the processing

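No paired analysis was possible because each time has 1 library. The all-gene median log2 ratio (-0.27) was -0.035 with TMM factors, -0.020 in the TPM table, -0.23 with no count minimum beyond 1, and -0.39 at 400 counts or more; total counts turned its sign, to 0.24. Genes 2-fold lower (798) numbered 515 with TMM factors, 257 with total counts, 1506 of 10196 with no minimum, 466 of 1796 at 400 counts, 1490 at 1.5-fold and 200 at 3-fold. Genes 2-fold higher (2) numbered 8, 56, 240, 0, 27 and 0 in the same order, and 50 in the TPM table. The difference of CDS of 4000 nt or more from those under 1500 nt (-1.28) was -1.20 in the TPM table and with no minimum, -1.33 at 400 counts, -1.0 for 3000 against 2000 nt and -1.43 for 6000 against 1000 nt. CDS of 12000 nt or more exceeded those of 6000 to 8000 nt by 0.64 in log2, by 0.61 to 0.67 at other count minimums, and by 0.94 in the TPM table; this difference was chosen once the values were known. Factors of mitochondrially encoded genes and a minimum of 50 counts at 5 min moved none of these counts by over 1.5 times. The TPM table turned the sign of 1 of 67 named genes past 2-fold, Wdr33 (-1.17 to 0.71), and of 34 of the 134 others, among them Sptan1 (-0.94 to 0.15), Kmt2d (-0.57 to 0.47) and Dst (-0.27 to 0.55). For the median gene the log2 ratio was 0.233 higher in the TPM table than in the count table. A ratio just below 0 can turn sign by this common shift alone, like that of App (-0.16 to 0.07). The cause of larger departures was not tested. Depth limits single genes: at about 100 counts in both libraries together, intervals span a factor of over 2.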
